A study of Mus musculus with 6 samples.

Results

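Fibronectin and 9 secreted matricellular genes were followed in mouse epidermal keratinocytes of mice with deletions of Ovol1 and Ovol2, zinc finger transcription factors of epithelia. The 10 genes were Fn1, Ccn1, Ccn2, Ccn4, Sparc, Fstl1, Thbs1, Thbs2, Postn and Tnc, among 19938 named genes measured. They were taken by gene symbol. Each of the 10 had a single probe set, so none had to be chosen by its level, but the list itself was drawn up with earlier results of these arrays known. Ccn4 and Fstl1 were already known to be among the larger changes, so their adjusted p values describe the fit and are not independent evidence.

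RNA was hybridised to 6 one-colour Affymetrix arrays, 2 per group. The Ovol1/2 DKO arrays came from mice with the genotype Ovol2flox/-;K14-Cre; Ovol1-/-, in which Cre is driven by the promoter of keratin 14, a basal keratinocyte gene, and in which the second Ovol2 allele is null in every cell. The Ovol1 KO label stands for Ovol1-/- mice. The Control label covers Ovol2flox/+; Ovol1+/- and Ovol2flox/+;K14-Cre mice, so controls could carry 1 floxed Ovol2 allele together with either 1 null Ovol1 allele or Cre. All mice were C57BL/6 embryos at E18.5 labelled female, littermates shared cages, each array carried RNA of 2 mice, and the isolated keratinocytes had been cultured for 2 to 5 days under titles that read "no calcium". The stated aim of the study was to find primary changes.

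Fibronectin is a large glycoprotein that cells assemble into fibrils through integrins and that carries other matrix proteins. Matricellular proteins are secreted into the same matrix but act mainly on how cells attach, migrate and respond to growth factors rather than as scaffold. In skin they are best known from wounds, where migrating keratinocytes and fibroblasts deposit fibronectin and tenascin-C, and several of them are used as markers of epithelial cells that take on mesenchymal features.

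Some facts about the arrays bear on every result. Ovol1 read 5.96 and 6.22 on the log2(intensity + 16) scale used throughout in Ovol1/2 DKO, 10.75 and 9.80 in arrays labelled Ovol1 KO, and 9.64 and 9.95 in Control. The arrays labelled Ovol1 KO thus went against their label, and directions drawn from them rest on that label. Ovol2 read 7.63 and 7.50 in Ovol1/2 DKO, 7.88 and 8.38 under the Ovol1 KO label, and 8.37 and 6.97 in Control, where Ovol1/2 DKO and Control overlapped; whether either probe set lies in a deleted part is not known here. Xist, which coats the inactive X chromosome, was near 11 on 4 arrays but 4.54 on replicate 1 labelled Ovol1 KO and 4.43 on Control replicate 1, and the Y-linked Eif2s3y read 13.80 on replicate 1 labelled Ovol1 KO and at most 5.14 on the others. Krt5 and Krt14, from a list of 11 keratinocyte markers, bore out the keratinocyte label. Krt5 lay between 13.39 and 13.55 and Krt14 between 13.21 and 13.39 over the 6 arrays. The median of the unnamed probe sets reached at most 6.20 on an array, and lower values are called near background here.

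In Ovol1/2 DKO against Control, 3 of 10 members rose in the limma test (adjusted p under 0.05 over all genes), namely Ccn4, Fstl1 and Sparc, where 0.622% of all genes did. None of the 10 fell, where 1.4% of all genes did. In 6 of 10 members both Ovol1/2 DKO arrays lay above both Control arrays, as in 21.1% of all genes, and in 2 of 10, Ccn1 and Thbs1, both lay below, as in 18.1% of all genes. The median log2 difference of the 10 members was 1.07, against 0.03 over all genes, and they ran from -0.74 to 4.18. Precision is limited by having only 2 arrays in a group, and p values measure the spread between these pools.

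**Figure D1:**
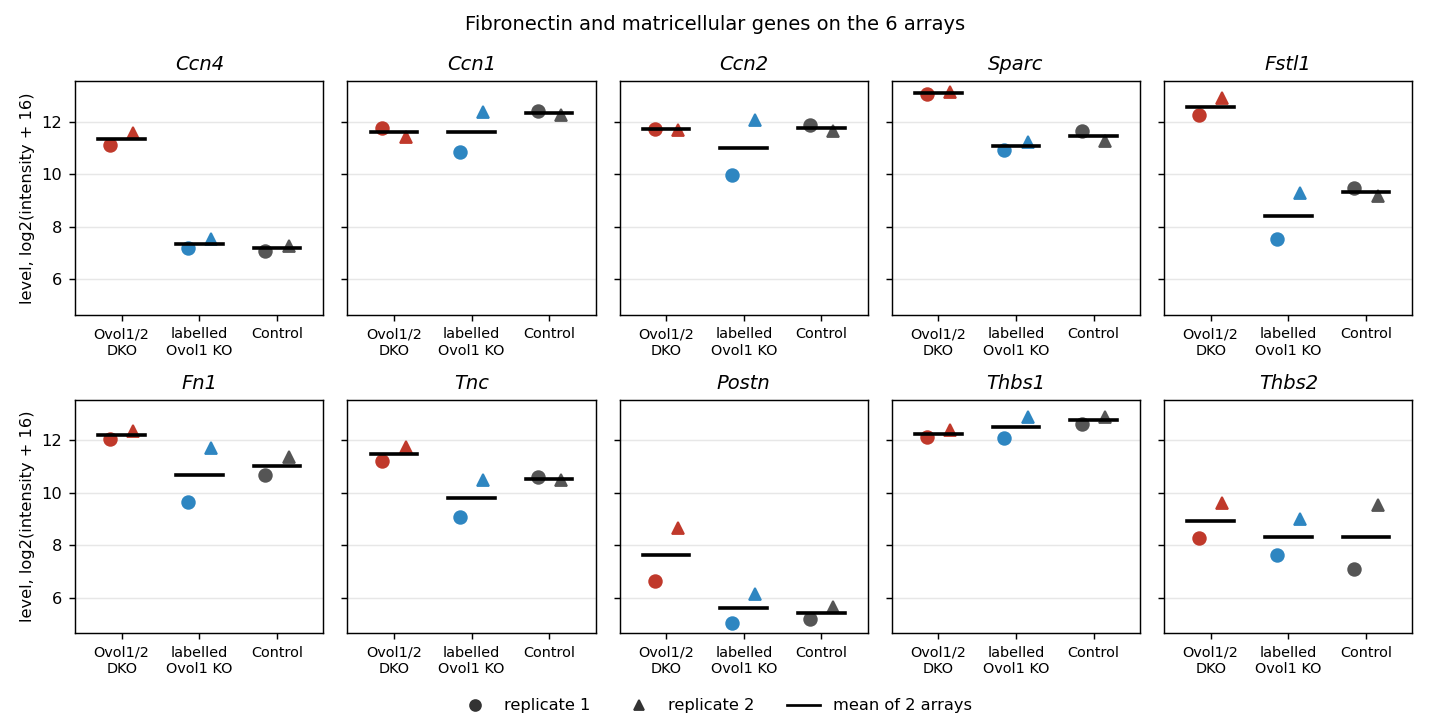
Level of each of the 10 genes on each array, as log2(intensity + 16), with Ovol1/2 DKO at the left, the arrays labelled Ovol1 KO in the middle and Control at the right of each panel; circles are replicate 1, triangles replicate 2 and bars the mean of 2 arrays. Ccn4, Fstl1 and Sparc stand apart in Ovol1/2 DKO, while Ccn1, Ccn2 and Thbs1 do not lie above Control there.

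The CCN proteins are cysteine-rich matrix signalling proteins that bind integrins and heparan sulfates. Ccn4, first described as a gene induced by Wnt signalling under the name Wisp1, stood at 11.12 and 11.59 in Ovol1/2 DKO, 7.20 and 7.52 under the Ovol1 KO label, and 7.08 and 7.26 in Control. Both Ovol1/2 DKO arrays were high, the other 4 lay between 7.08 and 7.52, and the groups did not overlap. Ccn4 rose 18.2-fold over Control (log2 difference 4.18, SE 0.24, limma adjusted p = 0.00263, n = 2 in each group) and 16-fold over the arrays labelled Ovol1 KO (4.0, SE 0.24, limma adjusted p = 0.00274). The difference was 4.04 between the replicate 1 arrays and 4.33 between the replicate 2 arrays of Ovol1/2 DKO and Control.

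The other CCN members did not pass the test. Ccn1, known as Cyr61 and an immediate early gene that YAP and TEAD factors activate, read 11.79 and 11.41 in Ovol1/2 DKO, 10.84 and 12.39 under the Ovol1 KO label, and 12.41 and 12.27 in Control. Both Ovol1/2 DKO arrays were thus below both Control arrays, while the arrays labelled Ovol1 KO lay on either side of them. The difference from Control was -0.74 with a 95% interval from -1.88 to 0.39 and did not pass (limma adjusted p = 0.823). Ccn2, known as Ctgf and a target of both YAP and TGF-beta, read 11.73 and 11.69 in Ovol1/2 DKO, 9.98 and 12.07 under the Ovol1 KO label, and 11.88 and 11.66 in Control. Its groups overlapped, and the difference from Control of -0.058 (95% interval -1.50 to 1.38) leaves room for a change of more than 2-fold in either direction.

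Sparc and Fstl1 belong to 1 family of proteins with a follistatin-like and a calcium-binding module. Sparc, a collagen-binding protein also called osteonectin, read 13.06 and 13.15 in Ovol1/2 DKO, 10.92 and 11.24 under the Ovol1 KO label, and 11.65 and 11.25 in Control. The Ovol1/2 DKO arrays were both high and close together, and the groups did not overlap. Sparc rose 3.15-fold over Control (log2 difference 1.65, SE 0.23, limma adjusted p = 0.0235) and 4.07-fold over the arrays labelled Ovol1 KO (2.03, SE 0.23, limma adjusted p = 0.0106). Against Control it lost the call without Control replicate 2 (1.45, limma adjusted p = 0.122), without Ovol1/2 DKO replicate 1 (1.70, 0.122) or replicate 2 (1.61, 0.172), and with all probe sets tested (0.0812); against the arrays labelled Ovol1 KO it did so without either Ovol1/2 DKO array (2.07 and 1.98, 0.0593 and 0.0759) or labelled Ovol1 KO replicate 1 (1.87, 0.0600).

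Fstl1, a secreted glycoprotein that binds BMP ligands, read 12.25 and 12.91 in Ovol1/2 DKO, 7.54 and 9.27 under the Ovol1 KO label, and 9.46 and 9.19 in Control. Replicate 1 labelled Ovol1 KO was the lowest array, and the Ovol1/2 DKO arrays lay above all others. Fstl1 rose 9.53-fold over Control (log2 difference 3.25, SE 0.54, limma adjusted p = 0.0395) and 18.0-fold over the arrays labelled Ovol1 KO (4.17, SE 0.54, limma adjusted p = 0.0142). Against Control its difference lay between 2.92 and 3.58 whichever 1 array was left out, but it did not pass without either Control array (3.39 and 3.11, limma adjusted p = 0.0665 and 0.165) or either Ovol1/2 DKO array (3.58 and 2.92, 0.112 and 0.224). Against the arrays labelled Ovol1 KO its difference was 3.30 without replicate 1 and 5.04 without replicate 2 of that label, and it lost the call without Ovol1/2 DKO replicate 1 (4.50, limma adjusted p = 0.0519) or replicate 2 (3.84, 0.0861) and with all probe sets tested (0.0631).

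**Figure D2:**
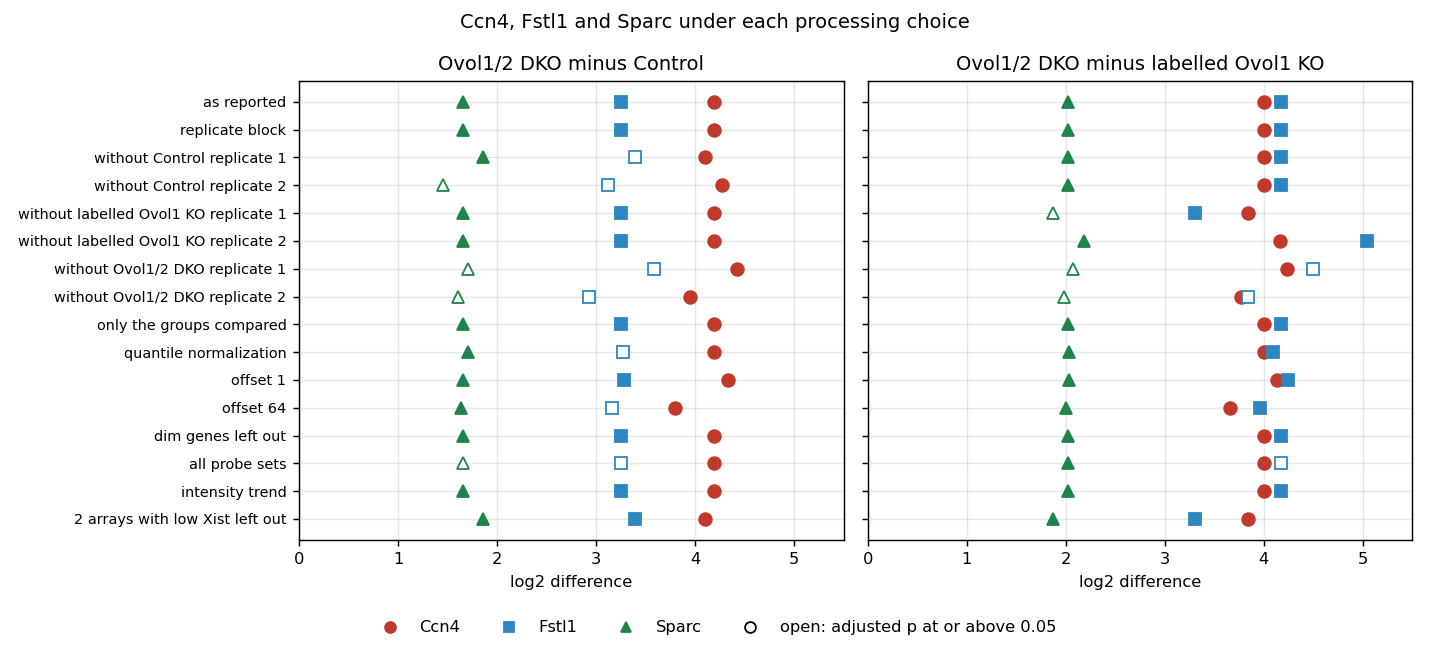
Log2 difference of Ccn4 (circles), Fstl1 (squares) and Sparc (triangles) under each processing choice, for Ovol1/2 DKO minus Control at the left and minus labelled Ovol1 KO at the right; open symbols have a limma adjusted p at or above 0.05. Ccn4 passed under all 15 alternatives in both comparisons, Sparc under 11 and 12 of 15, and Fstl1 under 8 and 12 of 15.

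Fibronectin itself did not pass the test. Fn1 read 12.04 and 12.37 in Ovol1/2 DKO, 9.65 and 11.69 under the Ovol1 KO label, and 10.69 and 11.35 in Control. Both Ovol1/2 DKO arrays were above all others, but the arrays labelled Ovol1 KO lay further from each other than the Ovol1/2 DKO mean lay from the Control mean. The difference from Control was 1.19 (SE 0.62, 95% interval -0.30 to 2.67) and did not pass (limma adjusted p = 0.672), nor did the 1.54 from the arrays labelled Ovol1 KO (limma adjusted p = 0.337).

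Tenascin-C and periostin both bind fibronectin in the provisional matrix of wounds. Tnc read 11.20 and 11.75 in Ovol1/2 DKO, 9.06 and 10.50 under the Ovol1 KO label, and 10.59 and 10.47 in Control, with no overlap but no pass against Control (0.95, SE 0.46, limma adjusted p = 0.611) or against the arrays labelled Ovol1 KO (1.69, SE 0.46, limma adjusted p = 0.137). Postn read 6.62 and 8.65 in Ovol1/2 DKO, 5.04 and 6.15 under the Ovol1 KO label, and 5.18 and 5.65 in Control, so the other 4 arrays were near background and Ovol1/2 DKO replicate 2 alone was clearly above it. Its difference of 2.22 from Control (SE 0.67) did not pass (limma adjusted p = 0.236) and was 1.20 without Ovol1/2 DKO replicate 2 and 3.23 without replicate 1. With replicate number as a block Postn passed in limma against Control (adjusted p = 0.0434). It also passed in limma against the arrays labelled Ovol1 KO (2.04, adjusted p = 0.0399). This made 4 risen members in each comparison, where 217 and 524 of 19938 genes rose.

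Thbs1 and Thbs2 are trimeric calcium-binding glycoproteins of the thrombospondin family. Thbs1 activates latent TGF-beta, and both inhibit the growth of blood vessels. Thbs1 read 12.13 and 12.38 in Ovol1/2 DKO, 12.09 and 12.90 under the Ovol1 KO label, and 12.64 and 12.91 in Control. The Ovol1/2 DKO arrays lay below both Control arrays, but the difference of -0.52 (95% interval -1.25 to 0.20) did not pass (limma adjusted p = 0.750). Thbs2 read 8.26 and 9.59 in Ovol1/2 DKO, 7.62 and 8.99 under the Ovol1 KO label, and 7.09 and 9.54 in Control. It was higher on replicate 2 in every group, and its difference of 0.61 from Control had the widest interval of the members, from -1.46 to 2.68.

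**Figure D3:**
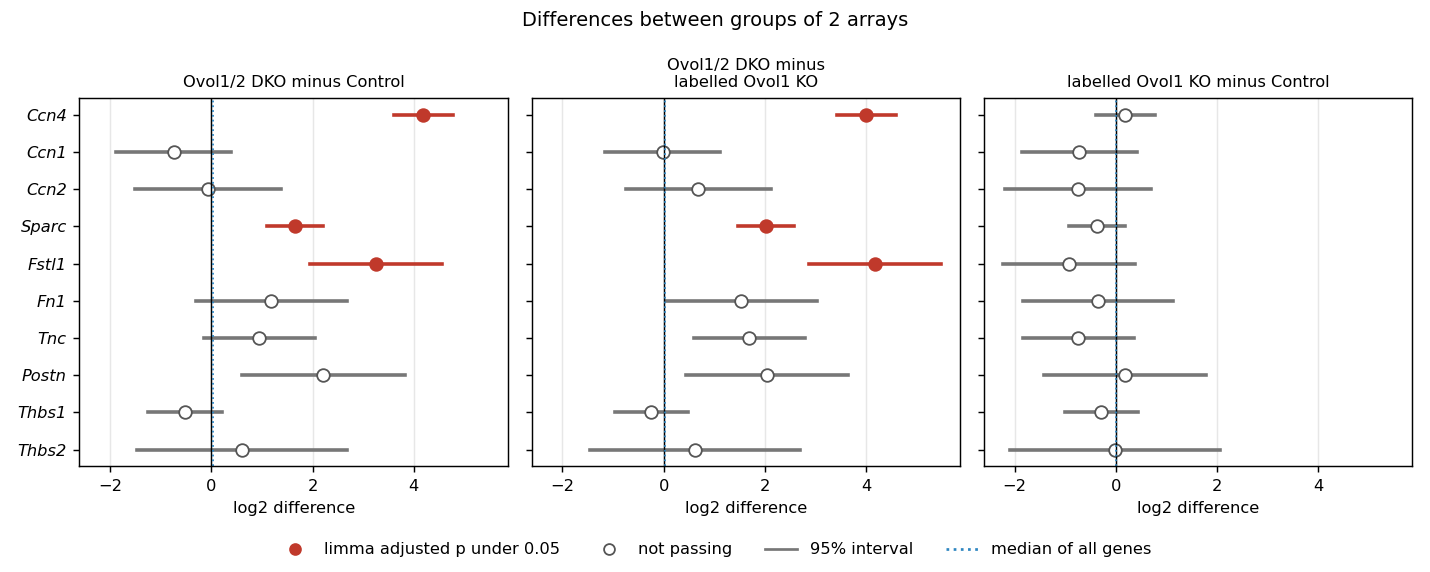
Log2 difference of each gene in Ovol1/2 DKO minus Control, Ovol1/2 DKO minus labelled Ovol1 KO, and labelled Ovol1 KO minus Control, with its 95% interval from the limma fit; filled points passed and the dotted line is the median of all genes. In the first and second panels Ccn4, Sparc and Fstl1 are filled, and in the third no gene is.

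The comparison with the arrays labelled Ovol1 KO shares the Ovol1/2 DKO arrays with the first, so both sets of differences are given side by side and not as support for each other. There, too, 3 of 10 members rose in limma, where 1.24% of all genes did, and none fell, where 1.91% did. The groups did not overlap, with Ovol1/2 DKO higher, in 6 of 10 members, as in 24.6% of all genes, and in no member was it lower without overlap, where it was in 3688 of 19938 genes. The differences rested in part on which labelled Ovol1 KO array was used. Without replicate 2 of that label they were 2.56 for Fn1, 1.73 for Ccn2 and 2.41 for Tnc. Without replicate 1 of that label they were 0.51 for Fn1, -0.35 for Ccn2 and 0.97 for Tnc. Each of these fits left 1 array in a group, so only differences are given here.

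For the Ovol1 KO label against Control no member passed in limma, and 0.0% of all genes did in either direction. With p left unadjusted, 153 genes were under 0.05, none of them a member. The members ran from -0.92 for Fstl1 to 0.18 for Ccn4, with a median of -0.36 against -0.0025 over all genes. Sparc was the only member without overlap, at -0.37 (SE 0.23), lower as were 10.3% of all genes, and no member was higher without overlap, as were 8.82% of all genes. Replicate 1 labelled Ovol1 KO was the lowest of the 6 arrays for 8 of 10 members, where it was the lowest for 15.8% of all genes. Without it the differences of Ccn1, Ccn2, Fn1 and Thbs1 turned positive (0.055, 0.30, 0.67 and 0.12), as did that of Thbs2. This array is also the one with Eif2s3y signal and low Xist, and the part of either in the members' levels was not tested. With that array and Control replicate 1 both left out, Ccn4, Fstl1 and Sparc stood at 4.10, 3.39 and 1.85 against Control. That fit kept 1 Control array and 1 array labelled Ovol1 KO. Its spread came from the Ovol1/2 DKO pair alone, so only differences are given.

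Promoter sequence of 6 of the 10 members was at hand from RefSeq (GRCm38.p6), as the 250 bases before each start; Fn1, Ccn2, Ccn4 and Thbs1 had no entry. The windows of the risen genes Fstl1 and Sparc are shown beside those of Ccn1 and Tnc, the members that held a match to a motif searched. Motifs were searched on both strands: GGAATG, which TEAD factors bind, CCGTTA, described for mouse Ovol1, and CACCTG, an E-box form that Zeb1 binds; no matches overlapped. Capitals mark matches, and each sequence runs 5′ to 3′ on the strand of its gene.
Fstl1, chr16:37776805-37777054, plus strand: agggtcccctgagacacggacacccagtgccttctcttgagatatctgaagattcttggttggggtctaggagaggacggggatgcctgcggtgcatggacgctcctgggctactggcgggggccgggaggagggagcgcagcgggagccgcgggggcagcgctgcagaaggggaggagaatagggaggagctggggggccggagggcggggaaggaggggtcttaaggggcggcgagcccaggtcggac
Sparc, chr11:55420081-55420330, minus strand: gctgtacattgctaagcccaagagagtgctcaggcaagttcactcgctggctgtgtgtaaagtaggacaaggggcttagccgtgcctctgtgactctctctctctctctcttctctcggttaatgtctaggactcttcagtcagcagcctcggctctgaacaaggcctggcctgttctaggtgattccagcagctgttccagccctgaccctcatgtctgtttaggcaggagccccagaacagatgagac
Ccn1, chr3:145649986-145650235, minus strand: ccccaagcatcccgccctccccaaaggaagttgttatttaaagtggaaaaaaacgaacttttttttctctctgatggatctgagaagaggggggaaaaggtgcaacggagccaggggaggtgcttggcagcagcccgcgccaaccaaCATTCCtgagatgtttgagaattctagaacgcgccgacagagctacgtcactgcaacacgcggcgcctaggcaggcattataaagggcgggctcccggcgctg
Tnc, the more upstream of 2 starts, chr4:64047016-64047265, minus strand: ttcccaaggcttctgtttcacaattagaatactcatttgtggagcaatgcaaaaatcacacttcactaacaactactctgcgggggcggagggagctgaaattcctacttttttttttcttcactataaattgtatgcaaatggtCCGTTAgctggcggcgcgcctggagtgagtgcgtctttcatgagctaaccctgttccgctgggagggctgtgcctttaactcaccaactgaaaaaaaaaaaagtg
Ccn1 held the TEAD letters in reverse, 103 to 98 bases before its start, as did 12.6% of 32851 windows of the same length with a match on either strand. Tnc held the Ovol1 letters, 105 to 100 bases before this start and 184 to 179 before the other, as did 2.18% of the windows, and neither Tnc nor Ccn1 passed the test against Control. No member window held the E-box letters, present in 17.2% of windows. The windows of Fstl1, Sparc, Thbs2 and Postn held none of the letters searched. A match is a run of letters and not a shown binding site.

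Of 111 genes measured in 6 related lists, 4 rose and 3 fell in limma in Ovol1/2 DKO against Control, where 0.622% and 1.4% of all genes did. Of 24 other matricellular genes measured, Tgfbi, a secreted integrin ligand induced by TGF-beta, was the only one to pass in Ovol1/2 DKO against Control, and 23 did not (list median 0.13). Among those not passing, Fbln2 stood at 2.63 and Fst at -1.26, both named after their values were seen. Tgfbi read 10.59 and 11.64 in Ovol1/2 DKO and 7.84 and 8.05 in Control (log2 difference 3.17, SE 0.46, limma adjusted p = 0.0270), and did not pass without either Control array, without Ovol1/2 DKO replicate 2, with an offset of 64 or with all probe sets (limma adjusted p up to 0.126). Of 18 partners in the fibrillar matrix, Lox, the collagen and elastin cross-linking enzyme, rose 19.0-fold (log2 difference 4.25, SE 0.38, limma adjusted p = 0.00755) and 17 did not pass (list median 0.25). Lox read 11.28 and 11.76 in Ovol1/2 DKO, 6.59 and 7.53 under the Ovol1 KO label, and 6.96 and 7.58 in Control, and passed in all 15 alternatives. Against the arrays labelled Ovol1 KO 3 partners rose: Lox, the proteoglycan Vcan (2.51, SE 0.34, limma adjusted p = 0.0156) and Ltbp1, a binder of latent TGF-beta that was named after its value was seen. Vcan did not pass without labelled Ovol1 KO replicate 1, without either Ovol1/2 DKO array or with all probe sets (limma adjusted p up to 0.108).

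Of 18 receptors for these proteins 1 passed in limma in Ovol1/2 DKO against Control, where 0.622% of all genes rose and 1.4% fell. Their differences ran from -1.71 to 0.76. Itgb6, the beta subunit of an epithelial integrin that binds fibronectin and latent TGF-beta, fell by 1.71 in Ovol1/2 DKO (SE 0.21, limma adjusted p = 0.0166), with 9.64 and 9.58 against 11.50 and 11.14 in Control. It did not pass without either Ovol1/2 DKO array or with all probe sets (limma adjusted p up to 0.126). The fibronectin receptor subunits Itga5 (0.57) and Itgb1 (0.33) did not pass, and the list median was 0.053.

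Of 15 regulators of YAP and TEAD none passed in limma, in any of the 3 comparisons. Of 19 YAP and TEAD targets outside the members, Ccdc80, a secreted matrix protein, rose by 2.17 (SE 0.36, limma adjusted p = 0.0395) from Control values near background. The tissue factor gene F3 fell by 1.62 (SE 0.24, limma adjusted p = 0.0265). The list median was -0.057, and 9 of the 19 differences were positive. Ankrd1 (-2.26) and Igfbp3 (-2.18), named after their values were seen, did not pass. Ccdc80 passed in 6 of 15 alternatives and F3 in 8, and neither passed without either 1 of the Control arrays. Among 17 genes of the TGF-beta axis the ligand Tgfb3 rose by 2.08 (SE 0.24, limma adjusted p = 0.0142) and the activin subunit Inhba fell by 2.48 (SE 0.29, limma adjusted p = 0.0139), with a list median of 0.088; neither passed without Control replicate 2, without Ovol1/2 DKO replicate 1 or with all probe sets, and Tgfb3 did not without Ovol1/2 DKO replicate 2.

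**Figure D4:**
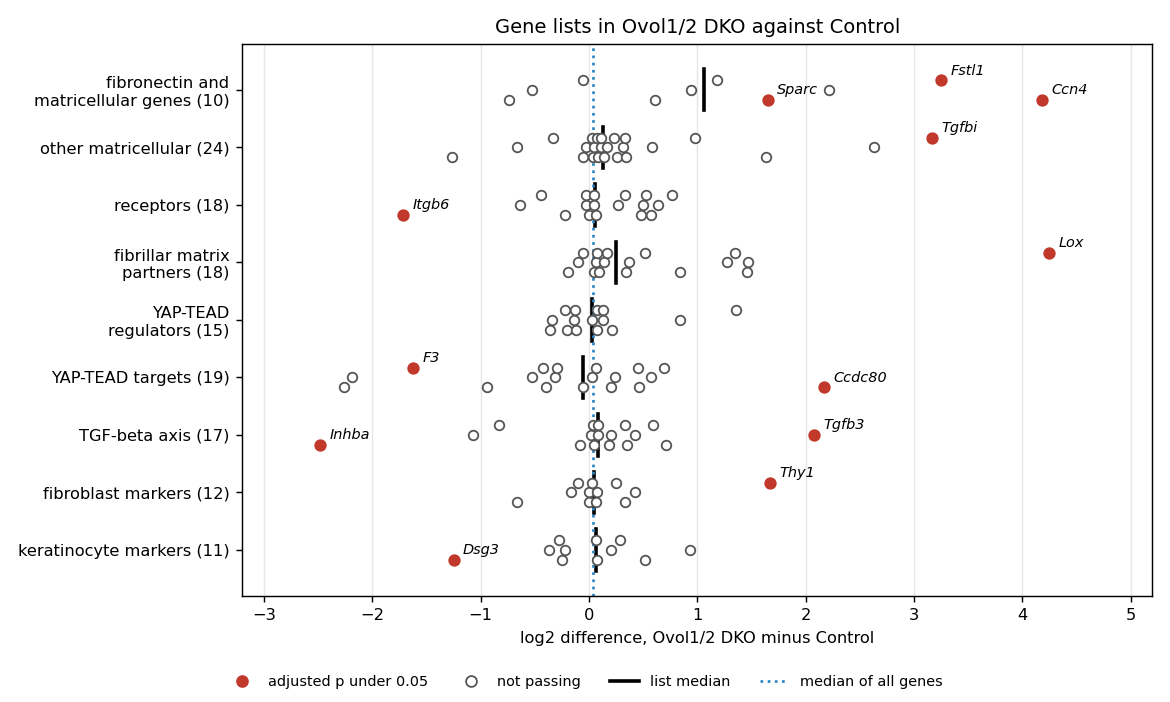
Log2 difference in Ovol1/2 DKO minus Control for each gene (points) of the fibronectin and matricellular list, 6 lists of related genes and 2 marker lists, with the number measured in brackets; filled points passed in limma, black bars are list medians and the dotted line is the median of all genes. The 10 members have a median of 1.07, and the medians of the other lists lie between -0.057 and 0.25.

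Several members are abundant in fibroblasts, and in bulk RNA fewer cells of a type and less RNA per cell cannot be told apart. Of 12 fibroblast markers 1, Thy1, rose in Ovol1/2 DKO against Control (log2 difference 1.67, SE 0.22, limma adjusted p = 0.0187). The summed intensity of the 12 was 2054 and 2615 in Ovol1/2 DKO, 1365 and 2210 under the Ovol1 KO label, and 1205 and 2261 in Control. Col1a1 read 8.07 and 8.50 in Ovol1/2 DKO and 7.48 and 8.25 in Control, Dcn 7.35 and 8.30 against 7.25 and 8.40, and Pdgfra 6.25 and 6.45 against 6.23 and 7.80, so the groups overlapped for each; Lum was near background on every array. The marker level was higher on replicate 2 than on replicate 1 in all 3 groups for 8 of 12 markers, as it was for 5 of 10 members (Fn1, Ccn4, Thbs1, Thbs2 and Postn) and 19.9% of all genes. The part of fibroblast content in the members' levels was not tested. Of 5 smooth muscle and pericyte markers 1 rose, Cspg4 (2.11, SE 0.28, limma adjusted p = 0.0193), named after its value was seen. Notch3, also named after its value was seen, lay lower than in Control without overlap but did not pass (-0.56, SE 0.26, limma adjusted p = 0.574), nor did Myh11. Among 11 keratinocyte markers, the desmosomal cadherin Dsg3 fell by 1.25 (SE 0.21, limma adjusted p = 0.0402) and 10 did not pass. No melanocyte, endothelial, leukocyte, Schwann or Merkel cell marker passed in limma in Ovol1/2 DKO against Control. However, 4 of 8 melanocyte markers lay lower in Ovol1/2 DKO without overlap, as did 18.1% of all genes. These were Tyrp1 (-1.74, SE 0.49, limma adjusted p = 0.199), Dct (-1.46, SE 0.65, 0.539), Pmel (-1.11, SE 0.40, 0.367) and Mitf (-0.95, SE 0.27, 0.212), named after their values were seen. In labelled Ovol1 KO against Control 4 of 8 melanocyte markers also lay lower without overlap, as did 10.3% of all genes. They were Dct (-1.51), Tyrp1 (-1.15), Pmel (-0.68) and Mlana (-0.19), while Mitf overlapped there (0.14). The summed intensity of the 8 was 804 and 662 in Ovol1/2 DKO, 1130.3 and 865 under the Ovol1 KO label, and 1209.8 and 1362 in Control. Of 6 endothelial markers, 2 lay higher and 2 lower in Ovol1/2 DKO than in Control without overlap, as did 21.1% and 18.1% of all genes. Kdr stood at -1.15 (SE 0.22, limma adjusted p = 0.0598) and Pecam1 at 0.84 (SE 0.19, limma adjusted p = 0.100), both named after their values were seen. Kdr was also low under the Ovol1 KO label (-1.08 against Control). Pecam1 passed in limma against the arrays labelled Ovol1 KO (1.28, adjusted p = 0.0204). The part of either cell type in the members' levels was not tested.

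The genes closest to Fn1 and to Ccn4 in pattern were sought by the root mean square difference of log2 values, each gene centred on its own mean over the 6 arrays. For Fn1, whose own spread was 0.91, the closest genes searched were Nnat (0.26), the cytoskeletal protein gene Dpysl3 (0.26), Fam167a (0.27), the fibril-associated collagen gene Col12a1 (0.33) and the growth factor gene Gdf11 (0.33). Among the members Tnc lay closest, at 0.33. For Ccn4, whose own spread was 1.94, they were the focal adhesion gene Tns1 (0.27), Lox (0.30), the actin-binding protein gene Tagln (0.42), the transcriptional repressor gene Zeb1 (0.44) and Igfbp4 (0.49), and among the members Fstl1, at 0.65. Tns1 averaged 12.34 in Ovol1/2 DKO, 8.09 in the arrays labelled Ovol1 KO and 7.92 in Control. It was chosen for its closeness to Ccn4 on these arrays, so being high on the same ones follows from the choice.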

How the data were processed

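Gene expression was measured on 6 one-colour arrays. The authors deposited 1 intensity per probe set, not on a log scale; per the submitters' processing notes, Affymetrix Expression Console 1.1.1 and PLIER 2.0 were used; background correction is not given in the sources used here, nor is normalization. Of 35556 probe sets, 21789 had 1 gene symbol in the platform annotation, 1621 several and 12146 none. Symbols were updated by Entrez identifier against RefSeq (GRCm38.p6), and 91 had no match. Where a gene had several (999 genes), its probe set of highest mean log2 value stood for it, leaving 19938 genes. Array medians ran from 103.3 to 109.8.

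Values were taken as log2(intensity + 16), which understates changes of dim genes. limma 3.58.1 in R 4.3.3 (lmFit, eBayes) fitted all 6 arrays in 1 model (residual degrees of freedom 3, prior 3.68), and p values were adjusted over all genes by Benjamini-Hochberg. An adjusted p under 0.05 passed. Intervals are 95% and come from the same fit. The labels call the arrays biological replicates. On simulated data the fit gave unbiased differences and recovered large changes, but few small ones; the pass mark was set to large changes after a stricter one had failed. Members, gene lists, motifs and the rule for named genes were chosen with earlier results of these data known. Named were all members, markers and up to 2 passing genes per direction of each related list. The 5 genes closest in pattern to Fn1 and to Ccn4, among those searched, were also named. Of the list symbols, 7 were not measured here.

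The alternatives tried were the replicate number as a block, each array left out in turn, a fit of only the compared groups, quantile normalization, offsets of 1 and 64, genes below the 25th percentile left out, all probe sets and an intensity trend. Leaving out the 2 arrays with low Xist as a pair was chosen after seeing the data. The labels do not tie a replicate number to a litter or day, but same-numbered arrays deviated from their group means together in each pair of groups (r of 0.49 for Ovol1/2 DKO and Control, 0.19 for Ovol1/2 DKO and labelled Ovol1 KO, 0.26 for labelled Ovol1 KO and Control), so pairing rests on the data alone and the blocked value is given where it changes a call.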

Additional observations from a re-analysis of the deposited data

How the results depend on the processing

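The count of 3 risen members against Control was 1 with all 35556 probe sets tested, and ran from 1 to 3 without any 1 array; against the arrays labelled Ovol1 KO it ran from 1 to 6 without any 1 array. With replicate number as a block Postn was added in both comparisons (2.22, limma adjusted p = 0.0434, and 2.04, limma adjusted p = 0.0399), no other member changed its call, and 597 and 1022 genes passed, against 403 and 628 without the block. Over all genes the count against Control was 91 with all probe sets, 155 with an offset of 64, 1395 without the 2 arrays of low Xist, and 152, 109 and 99 without Control replicate 2, Ovol1/2 DKO replicate 1 and Ovol1/2 DKO replicate 2. Against the arrays labelled Ovol1 KO it was 206, 311 and 1508 in the first 3 of these, and 135, 182 and 154 without labelled Ovol1 KO replicate 1, Ovol1/2 DKO replicate 1 and Ovol1/2 DKO replicate 2. Between labelled Ovol1 KO and Control, 3 genes passed without labelled Ovol1 KO replicate 2 and 20 without the 2 arrays of low Xist, against 0. Fstl1 against Control also did not pass with quantile normalization (limma adjusted p = 0.0814), an offset of 64 (0.0941) or all probe sets (0.147), which raise the number of tests in the last case; the cause of the others was not tested.

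Of 450 alternative values of single members, 28 turned direction, none of a difference that passed, and 400 kept direction and call. Without the 2 arrays of low Xist, Ccn2 was 0.054 and Thbs2 -0.61 against Control, Ccn2 -0.35 and Thbs2 -0.058 against the arrays labelled Ovol1 KO, and in labelled Ovol1 KO against Control Fn1 was 0.34, Ccn1 0.12, Ccn2 0.41, Fstl1 0.086 and Tnc 0.032. Thbs2 in that last comparison was 0.016 with quantile normalization and 0.0054 with an offset of 1. Leaving out 1 array turned Ccn2 (-0.17 to 0.054) and Thbs2 (-0.61 to 1.83) against Control. Against the arrays labelled Ovol1 KO it turned Ccn1 (-0.80 to 0.76), Ccn2 (-0.35 to 1.73), Thbs1 (-0.65 to 0.17) and Thbs2 (-0.058 to 1.31). Between labelled Ovol1 KO and Control it turned Fn1 (-1.38 to 0.67), Ccn1 (-1.50 to 0.055), Ccn2 (-1.79 to 0.30), Thbs1 (-0.69 to 0.12), Thbs2 (-1.24 to 1.21) and Postn (-0.38 to 0.73). A lone array left in a group is assumed to vary like the other groups. Without the 2 arrays of low Xist only the Ovol1/2 DKO pair gave a spread, so the counts of passing genes there rest on that pair. Signal near background limits Postn.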
